A study of Mus musculus with 4 samples.

Results

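The C-type lectin receptor genes (Clec) and the killer cell lectin-like receptor genes (Klr) were followed in mouse bone marrow cultures, where SOX7::GFP high cells were set against SOX7::GFP low cells. The members were all genes to which the array platform assigns at least 1 probe set bearing a single symbol that begins with Clec or Klr. This gave 59 genes of the 22185 genes named in that way, 30 Clec and 29 Klr. Of the Clec genes 24 lie on chromosome 6, and so do 28 of the Klr genes. The exceptions are *Clec11a* on chromosome 7, *Clec3a* and *Clec4g* on chromosome 8, *Clec3b* on chromosome 9, *Clec14a* on chromosome 12, *Clec16a* on chromosome 16 and *Klraq1* on chromosome 17. The rule reads letters and not function, and 2 members are no such receptors: *Klraq1* is an older name of *Ppp1r21*, a regulatory subunit gene of protein phosphatase 1, and *Clec16a* is a gene of endosomal traffic and autophagy.

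Each group had 2 Affymetrix mouse exon arrays, 4 in all. By their group and the replicate number in their labels they are called high 1, high 2, low 1 and low 2 here, and values are given in that order. Both groups came from bone marrow of iSox7 mice, in which doxycycline switches on a transgene for SOX7 together with GFP, and had been carried for 10 to 12 passages on irradiated OP9 stroma, a mouse bone marrow stromal cell line, in medium with Kit ligand, interleukin 7 and FLT3. The labels place each group by its SOX7 level alone, name a sort on SOX7::GFP and cKIT, and give bone marrow cells but also a cell line, iSOX7, derived from Ainv18; they give no age or strain. Doxycycline was present in some cultures and absent in others by the series description, and the labels do not tie either condition to an array. The study describes SOX7::GFP low and high cells as subpopulations of the GFP-expressing cells that built up in its doxycycline-induced cultures. It reports array profiling of these subpopulations. The study calls the arrays biological duplicates, and no source says whether these were separate cultures or animals, so the p-values below measure the spread between these arrays only.

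C-type lectin receptors carry a fold that in many members binds sugars and in others binds proteins or lipids. On myeloid cells, the Clec4 and Clec7 receptors recognise microbes and dying cells, and they either activate the cell through the Fc receptor gamma chain (*Fcer1g*) or an own motif and the kinase *Syk*, or inhibit it through a motif that recruits the phosphatases *Ptpn6* and *Ptpn11*. The killer lectin-like receptors have the same fold and sit mostly on natural killer (NK) cells, where the Ly49 receptors (Klra genes) and the pairs of CD94 (*Klrd1*) with NKG2 proteins (Klrc genes) read major histocompatibility complex class I molecules on other cells. Their genes lie in the natural killer gene complex, side by side with those of the Clec2 proteins, which are ligands of the NKR-P1 receptors (Klrb1 genes).

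Values are log2 values after robust multi-array averaging (RMA), the authors' deposited scale. A probe set was kept if its second-highest value over the 4 arrays reached the filter value of 5.04, a gene's value is the mean of its kept probe sets, and a gene was called if the difference between the groups had a Benjamini-Hochberg adjusted p under 0.05 and was at least 2-fold in limma, fitted to all 18762 genes with a kept probe set. A log2 fold change is the SOX7::GFP high mean minus the SOX7::GFP low mean. Arrays of one group correlated at 0.961 and 0.958 across genes, and arrays of different groups at 0.859 to 0.865. *Sox7* itself was at 9.52 and 9.63 on the SOX7::GFP high arrays and at 9.07 and 8.90 on the SOX7::GFP low arrays. The difference of 0.59 (SE 0.15) followed the labels but was not called (adjusted p = 0.0859 in limma). Since the RNA comes from bulk cells, fewer cells of a type and less RNA per cell cannot be told apart in any value given here.

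At least 1 probe set passed the filter in 28 Clec genes and in 16 Klr genes. Of the Clec genes, 2 were called higher and 4 lower in SOX7::GFP high cells, and 22 were not called. Of the Klr genes, 1 was higher, 2 were lower and 13 were not called. The background is 6.85% of all genes tested, 3.61% higher and 3.24% lower. The called members are 21.4% of the tested Clec genes and 18.8% of the tested Klr genes, which rests on 6 and 3 genes. In 4 Clec and 3 Klr genes the mean was under the filter value in SOX7::GFP high cells only, and in 1 Clec and 2 Klr genes in SOX7::GFP low cells only, so that some of these genes passed the filter through 1 group and had to differ. Without the filter, 2 Clec genes were called higher and 3 lower, and of the Klr genes none was higher and 1 was lower (*Klrd1*), beside 4.9% of all 22185 genes. The arrays of the groups did not overlap in 15 Clec and 9 Klr genes, 53.6% and 56.2% of those tested, and in 54.4% of all genes. The median log2 fold change was -0.09 over Clec and -0.07 over Klr genes against 0.05 over all genes.

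**Figure D1:**
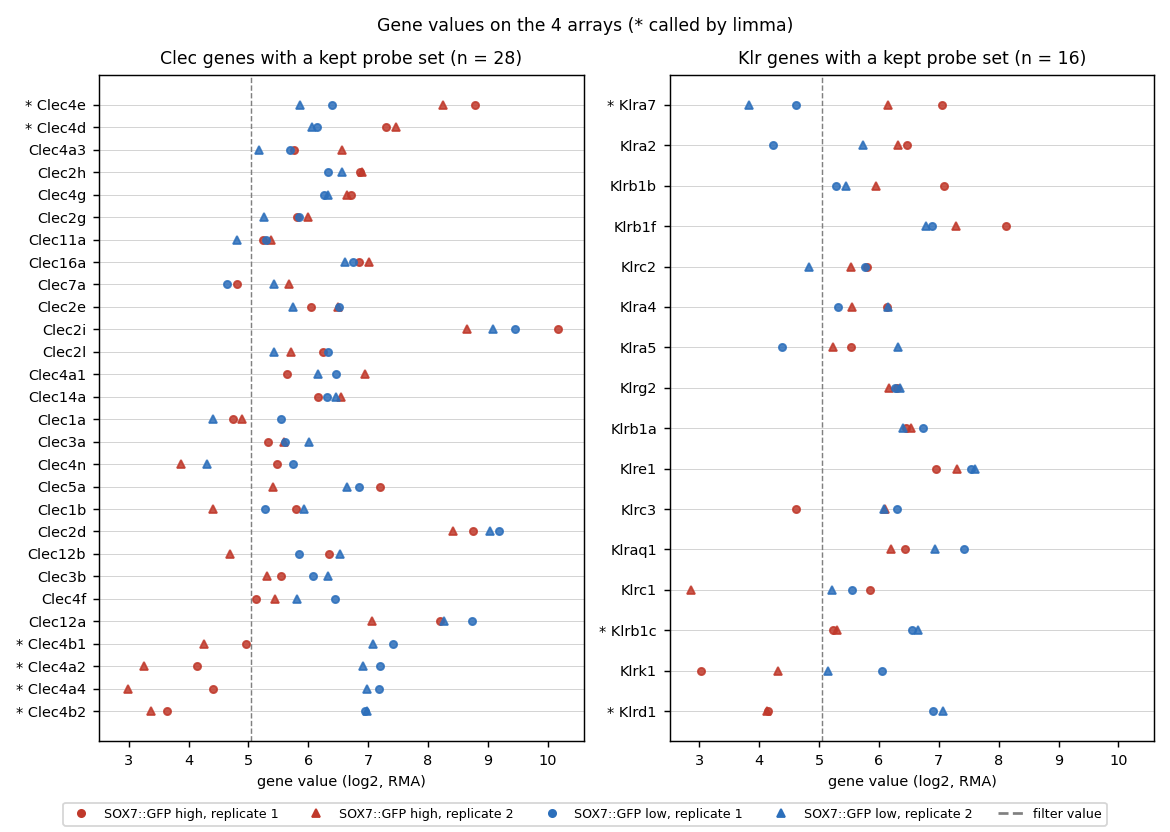
Gene values (log2, RMA) of the 28 Clec and 16 Klr genes with a kept probe set on the 4 arrays. Each point is 1 array, red for SOX7::GFP high and blue for SOX7::GFP low, with circles for replicate 1 and triangles for replicate 2, genes ordered by log2 fold change, called genes starred, and the filter value of 5.04 dashed. *Clec4e* and *Klra7* have the highest and *Clec4b2* and *Klrd1* the lowest differences, and *Klrk1*, between *Klrd1* and *Klrb1c*, is not called.

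All 6 called Clec genes belong to the Clec4 group and lie in 1 stretch of chromosome 6. To show the sequence at their starts, the promoter windows of 4 of them are given, 2 of genes that were lower and 2 of genes that were higher, from 250 bases before to 50 after the start of transcription (RefSeq, build GRCm38.p6, printed along the strand of the gene). Capitals mark matches on either strand to AACAAT, a SOX core (ATTGTT on the other strand), to GAGGAAG, a PU.1 core (CTTCCTC), or to TTGCNNAA, a C/EBP motif; none of these motifs overlaps another in these windows. The windows are chr6:123122440-123122739 (+ strand) for *Clec4a2*, chr6:123172773-123173072 (+ strand) for *Clec4b2*, chr6:123261857-123262156 (+ strand) for *Clec4d* and chr6:123289822-123290121 (- strand) for *Clec4e*.
Clec4a2: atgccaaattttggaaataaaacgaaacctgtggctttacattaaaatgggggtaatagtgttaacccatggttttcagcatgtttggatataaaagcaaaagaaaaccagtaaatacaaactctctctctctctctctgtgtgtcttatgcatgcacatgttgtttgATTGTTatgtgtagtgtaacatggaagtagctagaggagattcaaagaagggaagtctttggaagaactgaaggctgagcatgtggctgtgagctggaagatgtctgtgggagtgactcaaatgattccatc
Clec4b2: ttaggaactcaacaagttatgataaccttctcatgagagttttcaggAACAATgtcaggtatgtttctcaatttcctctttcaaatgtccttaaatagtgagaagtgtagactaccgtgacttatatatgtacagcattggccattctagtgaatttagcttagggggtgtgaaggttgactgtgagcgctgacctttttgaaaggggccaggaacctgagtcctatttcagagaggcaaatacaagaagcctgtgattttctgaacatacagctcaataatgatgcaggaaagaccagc
Clec4d: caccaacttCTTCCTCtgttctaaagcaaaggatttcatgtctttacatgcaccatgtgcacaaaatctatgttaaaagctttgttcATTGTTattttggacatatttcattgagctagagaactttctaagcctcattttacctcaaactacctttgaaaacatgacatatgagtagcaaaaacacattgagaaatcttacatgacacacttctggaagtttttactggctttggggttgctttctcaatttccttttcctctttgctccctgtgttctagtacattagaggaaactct
Clec4e: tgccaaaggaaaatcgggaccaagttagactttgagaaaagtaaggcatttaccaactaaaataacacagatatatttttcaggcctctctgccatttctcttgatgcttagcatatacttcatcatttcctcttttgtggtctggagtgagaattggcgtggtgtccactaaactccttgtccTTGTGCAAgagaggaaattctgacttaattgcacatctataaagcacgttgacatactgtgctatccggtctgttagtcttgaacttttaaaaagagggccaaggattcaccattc

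The SOX core stood once in the windows of *Clec4a2*, *Clec4b2* and *Clec4d*, of which the first pair was lower and the last higher, and was not in the windows of *Clec4b1* and *Clec4e*. The PU.1 core stood once in that of *Clec4d* and the C/EBP motif once in that of *Clec4e*. Over all 32851 windows of the table, 10.7% held the SOX core, 13.6% the PU.1 core and 10.8% the C/EBP motif. Of the 54 windows of members, 7, 10 and 17 held them. A window was given for 46 members and for 7 of the 9 called ones; *Clec4a4* and *Klrd1* had none. Aligned pair by pair, the windows of *Clec4a2*, *Clec4b1*, *Clec4b2*, *Clec4d* and *Clec4e* had the same letter in 33.8% to 50.6% of alignment columns. Columns with a gap are counted in these shares. The highest share was that of *Clec4a2* and *Clec4e*. The lowest, of *Clec4b1* and *Clec4b2*, came with the longest alignment, 141 identical letters in 417 columns for windows of 300 bases. Gap columns lower it, so the shares do not rank the pairs by likeness. A match of letters is a description of the window and no binding was measured.

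The 9 Clec4 genes of this stretch follow each other in the gene table as consecutive protein-coding genes, in the order *Clec4a1*, *Clec4a3*, *Clec4a4*, *Clec4b1*, *Clec4a2*, *Clec4b2*, *Clec4n*, *Clec4d* and *Clec4e*. The 4 genes that were lower in SOX7::GFP high cells, *Clec4a4* to *Clec4b2*, are direct neighbours. So are the 2 that were higher, *Clec4d* and *Clec4e*, and *Clec4n* stands between the groups of genes. None of the 9 genes has a probe set that the platform also assigns to another gene, although the probe letters themselves were not used here and their specificity was not tested.

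*Clec4a2* encodes DCIR, an inhibitory receptor of dendritic cells and other myeloid cells. It was at 4.14 and 3.26 on the SOX7::GFP high arrays and at 7.19 and 6.91 on the SOX7::GFP low arrays, over 8 of its 13 probe sets. Every one of these 8 probe sets was lower on both SOX7::GFP high arrays, by 1.49 to 4.96 on the log2 scale. Most of the 8 had both SOX7::GFP high arrays under the filter value. These passed it only through the SOX7::GFP low arrays and had to be lower on the SOX7::GFP high arrays. The gene was 10.2-fold lower (log2 fold change -3.35, SE 0.33, adjusted p = 0.00966 in limma). *Clec4a4*, which encodes the related DCIR2 of a dendritic cell subset, was at 4.41 and 2.995 against 7.18 and 6.99. Its arrays were as clearly apart, but only 2 of its 7 probe sets were kept. Both passed the filter through the SOX7::GFP low arrays alone and had to be lower on the SOX7::GFP high arrays. The log2 fold change of *Clec4a4* was -3.38 (SE 0.48, adjusted p = 0.0222 in limma), and over all 7 probe sets it was -0.82 and no longer called.

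*Clec4b1* and *Clec4b2* encode DCAR-type receptors, relatives of DCIR that lack its inhibitory motif and activate the cell. *Clec4b2* was at 3.63 and 3.37 on the SOX7::GFP high arrays and at 6.95 and 6.97 on the SOX7::GFP low arrays. It had the lowest log2 fold change of all members, -3.46 (SE 0.16, adjusted p = 0.00353 in limma), an 11.0-fold difference. All 7 kept probe sets were lower on both SOX7::GFP high arrays, from 0.59 to 5.56 lower, so the size differed widely along the gene. *Clec4b1* was at 4.96 and 4.26 against 7.42 and 7.09, with a log2 fold change of -2.64 (SE 0.29, adjusted p = 0.0116 in limma) over 4 probe sets, each of them lower. In all 4 genes the SOX7::GFP high means (3.50 to 4.61) were under the filter value and near the median of all probe sets (3.90 to 3.91). Background thus limits the size of these falls. Each of the 4 genes also had probe sets that passed the filter only through the SOX7::GFP low arrays. Their lower values on the SOX7::GFP high arrays were fixed by the filter.

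*Clec4a2* and *Clec4b2* were called whichever array was left out, with log2 fold changes of -3.80 to -2.91 and of -3.60 to -3.33. Without low 1, *Clec4b1* was at -2.48 and not called (adjusted p = 0.0523 in limma, from 0.00205 to 0.210 over its alternatives). Without low 1 or 2, *Clec4a4* was not called either (adjusted p = 0.0872 and 0.0858 in limma, from 0.00577 to 0.254 over its alternatives).

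The neighbours *Clec4d* and *Clec4e* moved the other way. They encode MCL and Mincle, activating receptors for mycobacterial glycolipids, of which Mincle also binds a protein set free by dying cells, and both act through *Fcer1g*. *Clec4e* was at 8.78 and 8.26 on the SOX7::GFP high arrays and at 6.39 and 5.87 on the SOX7::GFP low arrays. It was 5.24-fold higher (log2 fold change 2.39, SE 0.27, adjusted p = 0.0129 in limma). All 9 probe sets were higher on both SOX7::GFP high arrays, by 0.86 to 3.15. Some of these, the one with 3.15 among them, had both SOX7::GFP low arrays under the filter value. They passed it only through the SOX7::GFP high arrays and had to be higher there. *Clec4d* was at 7.30 and 7.46 against 6.14 and 6.07, a log2 fold change of 1.28 (SE 0.14, adjusted p = 0.0126 in limma). Here 6 of 9 probe sets were higher on both arrays, and the differences ran from -0.22 to 2.48. The probe set with 2.48 had both SOX7::GFP low arrays under the filter value, at 3.66 and 3.97, so its direction was fixed by the filter. With the median of its probe sets in place of the mean, *Clec4d* differed by 0.64 and was not called.

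Both rises kept their direction whichever array was left out, but their calls depended on the arrays used. *Clec4d* lost its call whichever array was left out, high 1 or 2 or low 1 or 2, at log2 fold changes of 1.19 to 1.36 (adjusted p of 0.0544 to 0.0843 in limma, from 0.00306 to 0.162 over its alternatives). *Clec4e* kept its call without low 1 and lost it without high 1, high 2 or low 2, at 2.13 to 2.65 (adjusted p of 0.0511 to 0.0713, from 0.00171 to 0.216 over its alternatives).

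The other genes of the stretch were not called. *Clec4n*, which encodes Dectin-2, a receptor for fungal mannans, was at 5.48 and 3.87 on the SOX7::GFP high arrays and at 5.75 and 4.30 on the SOX7::GFP low arrays, with the groups overlapping. *Clec4a1* (log2 fold change -0.02, SE 0.45) and *Clec4a3* (0.73, SE 0.34), further genes of the DCIR group, rested on 2 probe sets each. Of the genes before the stretch, *C3ar1*, a complement receptor gene, differed by -1.29 (adjusted p = 0.195 in limma), and *Necap1*, an endocytosis gene next to *Clec4a1*, by 0.08.

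**Figure D2:**
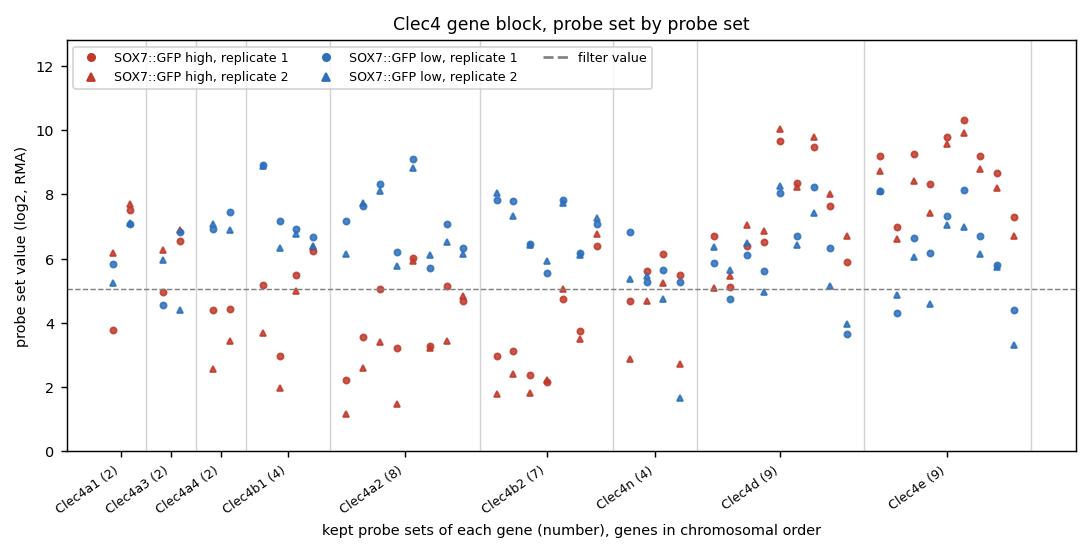
Values (log2, RMA) of every kept probe set of the 9 neighbouring Clec4 genes, with genes in chromosomal order, the number of kept probe sets in brackets and the filter value of 5.04 dashed. Each column of 4 points is 1 probe set, red for SOX7::GFP high and blue for SOX7::GFP low arrays. Blue points lie above red ones in each of the 21 probe sets of *Clec4a4*, *Clec4b1*, *Clec4a2* and *Clec4b2*, and red points lie above blue ones in all 9 of *Clec4e*. Most of the 21 have both red points under the filter value, so their order was fixed by the filter. Some probe sets of *Clec4d* and *Clec4e* have both blue points under it, which fixed their order too.

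The other Clec genes were not called. Of those in the natural killer gene complex, *Clec2d*, which encodes the ligand of the inhibitory NK receptor *Klrb1b*, was at 8.76 and 8.42 on the SOX7::GFP high arrays and at 9.19 and 9.04 on the SOX7::GFP low arrays. The groups did not overlap, 6 of 8 probe sets were lower on both SOX7::GFP high arrays, and the log2 fold change of -0.53 (SE 0.18, adjusted p = 0.164 in limma) was not called. *Clec2i*, the ligand of *Klrb1f*, was at 10.2 and 8.64 against 9.45 and 9.09. The SOX7::GFP high arrays thus lay on either side of the SOX7::GFP low arrays, and the log2 fold change of 0.14 (SE 0.52) turned to -0.63 without high 1.

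*Clec12a* encodes MICL, an inhibitory receptor of myeloid cells. It was at 8.21 and 7.07 on the SOX7::GFP high arrays and at 8.74 and 8.26 on the SOX7::GFP low arrays. Both SOX7::GFP high arrays were under both SOX7::GFP low arrays, high 1 only just, and the log2 fold change was -0.86 (SE 0.42, adjusted p = 0.309 in limma). *Clec5a*, whose receptor signals through DAP12 (*Tyrobp*), was at 7.20 and 5.42 against 6.84 and 6.64, so high 1 was above and high 2 below both SOX7::GFP low arrays. *Clec16a* was at 6.85 and 7.01 against 6.75 and 6.62 over 25 probe sets, a log2 fold change of 0.24 (SE 0.15).

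The pattern recognition receptor gene *Clec7a* (Dectin-1, a receptor for fungal beta-glucans) was at 4.81 and 5.67 on the SOX7::GFP high arrays and at 4.64 and 5.43 on the SOX7::GFP low arrays. Replicate 2 was higher than replicate 1 in both groups, and no difference was called (0.20, SE 0.40). *Clec1b*, which encodes the platelet receptor CLEC-2, was at 5.79 and 4.41 against 5.27 and 5.93 over 1 of 9 probe sets, so it showed no difference beyond its spread, while 4 of 6 megakaryocyte markers were higher in SOX7::GFP high cells (*Gp5* 2.62, *Itga2b* 2.40, *Pf4* 2.35 and *Ppbp* 1.66). Of these 6 markers 0 were called higher without high 1 and 1 without high 2. *Clec14a*, a gene of endothelial cells, was at 6.16 and 6.54 against 6.31 and 6.46, while 4 of 6 endothelial markers were higher (*Cdh5* 2.78, *Tek* 2.73, *Esam* 2.72 and *Pecam1* 1.41) and *Kdr* was lower (-1.63). Of the 6 endothelial markers 1 was called higher without high 1, high 2 or low 1, and *Kdr* was not called without high 1 or high 2. *Clec4f*, a receptor gene of liver macrophages, was lower on both SOX7::GFP high arrays, at 5.12 and 5.44 against 6.44 and 5.81, but not called (-0.85, SE 0.26, adjusted p = 0.141 in limma). The same held for *Clec3b*, which encodes tetranectin (-0.78, SE 0.17, adjusted p = 0.0656). The remaining 9 tested Clec genes, *Clec11a*, *Clec12b*, *Clec1a*, *Clec2e*, *Clec2g*, *Clec2h*, *Clec2l*, *Clec3a* and *Clec4g*, had log2 fold changes from -0.66 (*Clec12b*) to 0.43 (*Clec2h*). *Clec2f* and *Clec9a*, the latter a receptor gene of dendritic cells that take up dead cells, had no kept probe set, with second-highest values of at most 4.58 and 4.57.

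*Klrd1* was the Klr gene with the lowest log2 fold change. It encodes CD94, the shared partner of the NKG2 receptors. It was at 4.15 and 4.13 on the SOX7::GFP high arrays and at 6.90 and 7.07 on the SOX7::GFP low arrays. The arrays of a group lay within 0.2 of each other, and all 7 of its probe sets were lower on both SOX7::GFP high arrays, by 0.90 to 4.02. The filter dropped no probe set of this gene. Most of the 7 had both SOX7::GFP high arrays under the filter value, so these passed it only through the SOX7::GFP low arrays. *Klrd1* was 7.21-fold lower (log2 fold change -2.85, SE 0.14, adjusted p = 0.00362 in limma) and was called whichever array was left out, at -2.94 to -2.76. Its SOX7::GFP high mean was under the filter value, so background limits the size of this fall too.

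The partners of CD94 were seen only in part. *Klrc1*, the inhibitory NKG2A gene, was at 5.85 and 2.85 against 5.54 and 5.21 over 1 of 11 probe sets. Array high 2 alone was low, and the log2 fold change of -1.03 (SE 0.98, adjusted p = 0.605 in limma) turned to 0.47 without it. Without high 1, *Klrc1* was called, at -2.53 (adjusted p = 0.0476, up to 0.784 over its alternatives). *Klrc2*, the activating NKG2C gene, was at 5.79 and 5.53 against 5.76 and 4.82, and *Klrc3* at 4.61 and 6.10 against 6.29 and 6.08, with the groups overlapping in both.

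Next to *Klrd1* on the chromosome lie *Klre1* and *Klrk1*. *Klrk1* encodes NKG2D, an activating receptor that signals through DAP10 (*Hcst*). A single one of its 20 probe sets passed the filter, at 3.02 and 4.31 on the SOX7::GFP high arrays and at 6.05 and 5.14 on the SOX7::GFP low arrays. Both SOX7::GFP high arrays were under the filter value. This probe set thus passed only through the SOX7::GFP low arrays, and the groups could not overlap. The log2 fold change of -1.93 (SE 0.53, adjusted p = 0.106 in limma) was not called, and over all 20 probe sets it was -0.38. By the second-highest value of its brightest probe set, *Klrk1* lay closest above the filter among the members, at 5.14, and *Klra6* closest below it, at 4.75. *Klre1*, whose product pairs with those of *Klri1* and *Klri2*, was at 6.94 and 7.30 against 7.54 and 7.61 over 1 of 8 probe sets (-0.45, SE 0.18, adjusted p = 0.212). *Klri1* and *Klri2* had no kept probe set.

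The NKR-P1 genes differed among themselves. *Klrb1c*, which encodes the NK1.1 antigen, an activating receptor, was at 5.22 and 5.30 on the SOX7::GFP high arrays and at 6.55 and 6.65 on the SOX7::GFP low arrays. It was 2.52-fold lower (log2 fold change -1.33, SE 0.14, adjusted p = 0.0108 in limma). This rested on 2 of 9 probe sets, with differences of -2.16 and -0.51. The probe set with -2.16 had both SOX7::GFP high arrays under the filter value, at 3.90 and 4.08. It passed only through the SOX7::GFP low arrays and had to be lower on the SOX7::GFP high arrays. Over all 9 probe sets the log2 fold change was -0.81 and not called. *Klrb1c* kept its call without low 1 and lost it without high 1, high 2 or low 2, at -1.37 to -1.29 (adjusted p of 0.0564 to 0.0724 in limma, from 0.00597 to 0.149 over its alternatives).

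*Klrb1b*, the inhibitory receptor gene for *Clec2d*, was at 7.09 and 5.95 against 5.28 and 5.46. Both SOX7::GFP high arrays were above both SOX7::GFP low arrays, high 1 by more, and the log2 fold change of 1.15 (SE 0.39, adjusted p = 0.169 in limma) was not called. *Klrb1f*, the receptor gene for *Clec2i*, was at 8.12 and 7.28 against 6.88 and 6.79. The groups did not overlap and 6 of 8 probe sets were higher on both SOX7::GFP high arrays, but the log2 fold change of 0.87 (SE 0.30, adjusted p = 0.176) was not called. *Klrb1a* was at 6.45 and 6.53 against 6.73 and 6.39 over 1 of 8 probe sets.

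Among the Ly49 genes, whose number and content differ between inbred mouse strains, *Klra7* was called higher. *Klra7* encodes the inhibitory receptor Ly49G. It was at 7.04 and 6.14 on the SOX7::GFP high arrays and at 4.62 and 3.83 on the SOX7::GFP low arrays. It was 5.17-fold higher (log2 fold change 2.37, SE 0.41, adjusted p = 0.0359 in limma) over 3 of 13 probe sets, which differed by 0.19 to 4.16 and of which none was called on its own. Its SOX7::GFP low mean of 4.22 was under the filter value, so this size too is limited by background, and 2 of the 3 probe sets reached the filter value on the SOX7::GFP high arrays only. *Klra7* lost its call whichever array was left out, high 1 or 2 or low 1 or 2, at 1.92 to 2.82 (adjusted p of 0.0572 to 0.131 in limma, from 0.00986 to 0.279 over its alternatives). Over all 13 probe sets its log2 fold change was 0.93.

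*Klra2*, which encodes the inhibitory receptor Ly49B of myeloid cells, was at 6.46 and 6.32 on the SOX7::GFP high arrays and at 4.23 and 5.72 on the SOX7::GFP low arrays. The groups did not overlap, and low 1 was the lowest. The log2 fold change was 1.41 (SE 0.50, adjusted p = 0.182 in limma), and without low 2 it was 2.16 and called (adjusted p = 0.0272, up to 0.481 over its alternatives). *Klra4* (0.10, SE 0.35) and *Klra5* (0.03, SE 0.64) showed no difference beyond their spread. The other 9 Ly49 members, *Klra1*, *Klra3*, *Klra6*, *Klra8*, *Klra9*, *Klra10*, *Klra13*, *Klra17* and *Klra22*, had no kept probe set of their own. Of the 13 Klra genes with probe sets of their own 4 thus had a kept one, and 12 of their 69 probe sets were kept.

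The Ly49 genes are so alike that the platform assigns 79 further probe sets to several Klra symbols at once. These enter no gene value. Of them 14 were kept, and 11 of these 14 were higher on both SOX7::GFP high arrays, 1 was lower on both, and 2 were called higher and 0 lower in limma fitted to single probe sets, beside 2.21% called higher and 1.79% called lower of 195721 probe sets. Of the same 195721 probe sets 30.3% were higher and 21.2% lower on both SOX7::GFP high arrays. In 4 of the 11, both called ones among them, both SOX7::GFP low arrays were under the filter value, so these passed only through the SOX7::GFP high arrays and had to be higher there. Without the filter, 28 of the 79 were higher and 8 lower on both SOX7::GFP high arrays. The shares of 30.3% and 21.2% are of kept probe sets and give no background for this count. In the 9 kept ones with *Klra1* among their symbols, SOX7::GFP high arrays were above SOX7::GFP low arrays by 1.75 to 4.42, with a median of 3.30. The medians of these 9 were 8.18 and 6.83 on the SOX7::GFP high arrays and 5.21 and 3.78 on the SOX7::GFP low arrays, with replicate 1 the higher in both groups. Which Ly49 gene these values come from cannot be told apart.

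**Figure D3:**
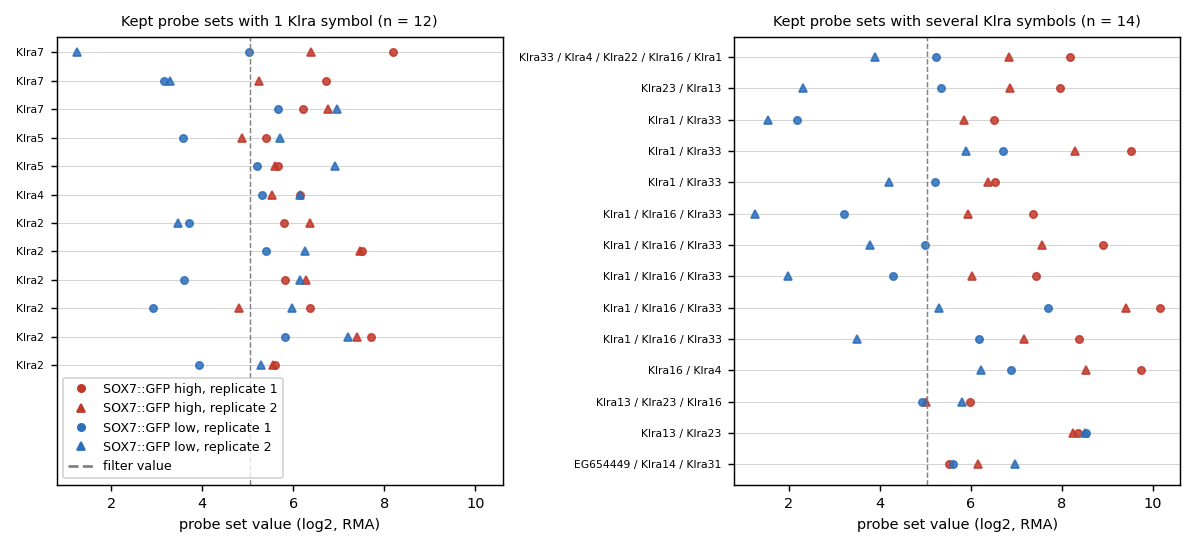
Values (log2, RMA) of the kept probe sets assigned to Ly49 genes (Klra), with those of a single symbol and those of several symbols apart, and the filter value of 5.04 dashed. Each row of 4 points is 1 probe set, red for SOX7::GFP high and blue for SOX7::GFP low arrays, circles for replicate 1 and triangles for replicate 2. Red points lie above blue ones in 11 of the 14 probe sets with several symbols.

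Of the remaining Klr members, *Klrg2* was at 6.30 and 6.17 against 6.26 and 6.34, and *Klraq1* (*Ppp1r21*) was at 6.43 and 6.20 against 7.42 and 6.94, with 17 of 24 probe sets lower on both SOX7::GFP high arrays and a log2 fold change of -0.86 (SE 0.22, adjusted p = 0.0884 in limma). *Klrg1*, an inhibitory receptor gene for cadherins, and the pseudogene *Klrb1-ps1* had no kept probe set, with second-highest values of at most 3.99 and 4.17. Taken probe set by probe set, 9 of 137 kept Clec probe sets were called higher and 16 lower (6.57% and 11.7%). Of 68 Klr probe sets 2 were called higher and 9 lower (2.94% and 13.2%). Of all 195721 kept probe sets 2.21% were called higher and 1.79% lower. Some of those called lower, such as probe sets of *Clec4b2* and *Klrd1*, passed the filter only through the SOX7::GFP low arrays. Both Klr probe sets called higher, of *Klra2* and *Klrb1b*, passed it only through the SOX7::GFP high arrays. So did some Clec probe sets called higher, of *Clec4d* and *Clec4e*. The direction of all of these was fixed by the filter. Probe sets of 1 gene are not independent of each other.

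**Figure D4:**
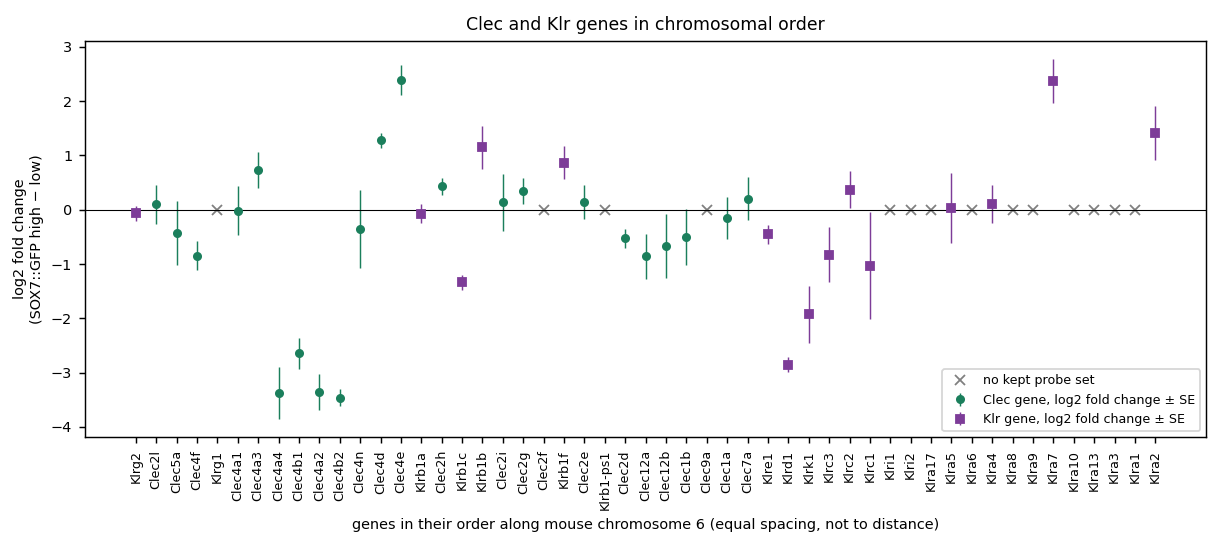
Log2 fold change (SOX7::GFP high minus SOX7::GFP low; bars are ± SE) of members on chromosome 6 by their order along the chromosome, at equal spacing, with Clec genes as green circles, Klr genes as purple squares and crosses at 0 for genes with no kept probe set. The neighbours *Clec4a4*, *Clec4b1*, *Clec4a2* and *Clec4b2* lie between -3.46 and -2.64, *Clec4d* and *Clec4e* at 1.28 and 2.39, and *Klrd1* at -2.85.

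The adaptors and signalling genes behind these receptors moved in part. Beside 3.61% of all genes called higher and 3.24% lower, 3 of the 16 tested were called higher in SOX7::GFP high cells and none was lower. The median log2 fold change of the 16 was 0.12. Without high 1 or high 2, 1 was called higher, and 2 were called lower with the median of probe sets or quantile normalization. *Fcer1g*, the chain through which *Clec4d*, *Clec4e* and *Klrb1c* signal, was at 11.5 and 11.3 on the SOX7::GFP high arrays and at 9.76 and 9.94 on the SOX7::GFP low arrays (1.54, SE 0.15, adjusted p = 0.00961 in limma). *Lcp2*, the adaptor SLP-76, rose by 2.14 and *Vav3*, an exchange factor, by 1.35. *Tyrobp* (0.30), the DAP12 chain of *Clec5a* and activating Ly49 receptors, and *Hcst* (0.71), the partner of *Klrk1*, were not called. *Syk*, the kinase downstream of these chains, was at 7.05 and 7.07 against 8.21 and 7.79 and was not called at the 2-fold limit (-0.94, adjusted p = 0.0530), and the phosphatase gene *Inpp5d* differed by -0.95 (adjusted p = 0.0306), under 2-fold.

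The 13 tested genes of the ligand list had a median log2 fold change of -0.33. Beside 3.24% of all genes called lower and 3.61% higher, 2 of the 13 were lower and none was higher. Both encode RAE-1 proteins, ligands of NKG2D. *Raet1e* was at 3.73 and 3.84 on the SOX7::GFP high arrays and at 6.52 and 6.57 on the SOX7::GFP low arrays (-2.76, SE 0.14, adjusted p = 0.00362 in limma). *Raet1d* was at 2.995 and 4.80 against 6.81 and 7.62 (-3.32, SE 0.65, adjusted p = 0.0499 in limma) over 1 probe set. This probe set passed the filter only through the SOX7::GFP low arrays and had to be lower on the SOX7::GFP high arrays. The SOX7::GFP high means of *Raet1e* (3.79) and *Raet1d* (3.90) were under the filter value, so background limits the size of both falls. Of the ligand list 1 gene was lower with no filter, quantile normalization or at least 3 probe sets per gene, and without high 1, low 1 or low 2. The class I genes read by the Ly49 and CD94 receptors, *H2-K1* (-0.57), *H2-D1* (-0.33) and *H2-T23* (-0.45), and *B2m* (-0.03) were not called. *Sap130* (-0.01), listed for its name, encodes a Sin3A-associated protein and not the Mincle ligand called SAP130.

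Among 33 tested genes of the same fold outside the Clec and Klr names, 1 was higher and 3 were lower. Their median log2 fold change was -0.20. All genes tested stood at 3.61% higher and 3.24% lower. *Cd302*, a C-type lectin of phagocytes, rose by 1.40. *Prg2*, the eosinophil major basic protein gene, was at 5.51 and 5.20 on the SOX7::GFP high arrays and at 9.37 and 8.91 on the SOX7::GFP low arrays (-3.78, SE 0.22, adjusted p = 0.00416 in limma). Its relative *Prg3* fell by 3.02 and *Cd69*, an activation antigen of lymphocytes whose gene lies in the natural killer gene complex, fell by 1.63. None was called higher without high 1, high 2 or low 2, with the median of probe sets or under the stricter filter, and 1 was called lower without high 2 or low 1.

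**Figure D5:**
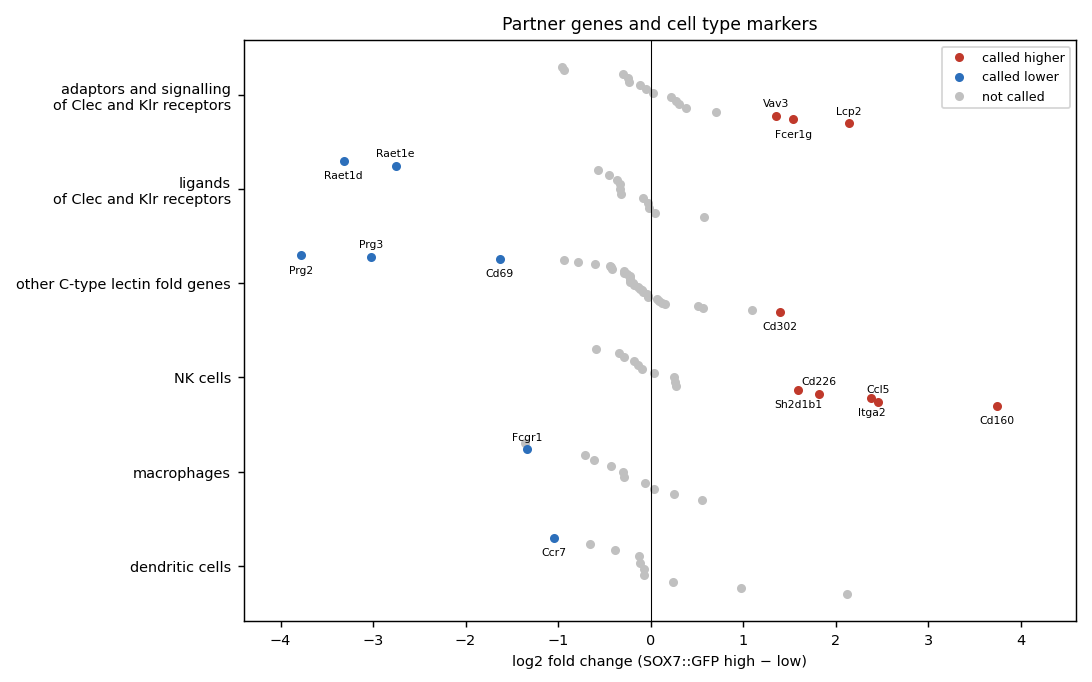
Log2 fold change (SOX7::GFP high minus SOX7::GFP low) of the tested genes of 6 lists, 1 point per gene, red where called higher, blue where called lower and grey where not called. Among the NK cell markers 5 points are red, led by *Cd160* at 3.74, and among the ligands *Raet1d* and *Raet1e* are blue.

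Markers of the cells that carry these receptors moved beside them as follows, and their part in the members' differences was not tested. The background for each marker list is 3.61% of all genes called higher and 3.24% lower. Of 15 tested NK cell markers 5 were higher in SOX7::GFP high cells and none was lower: *Cd160* (3.74), an NK and T cell receptor, *Ccl5* (2.46), a chemokine, *Itga2* (2.38), an integrin, *Cd226* (1.82), a co-receptor, and *Sh2d1b1* (1.59), an adaptor. Without high 1 or without high 2, 2 were called higher. The summed log2 values of the 15 were 98.1 to 98.3 on the SOX7::GFP high arrays and 86.8 to 87.3 on the SOX7::GFP low arrays. The median log2 fold change of the 15 was 0.25, and the difference of the sums rests on the 5 called markers. *Ncr1*, the receptor gene that defines NK cells, was under the filter value in both groups (means 4.65 and 4.99), and *Eomes* (-0.29), *Prf1* (-0.14) and *Gzma* (-0.18) were not called. The SOX7::GFP low means of *Itga2* (3.99), *Cd226* (3.58) and *Sh2d1b1* (4.49) were under the filter value. Background limits the size of these differences, and the filter can favour them. The Klr genes *Klrd1* and *Klrb1c* were lower in SOX7::GFP high cells, while 5 of the 15 markers were higher and 10 were not called.

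Of 10 dendritic cell markers 1 was lower (*Ccr7*, -1.05) and none was higher, with *Itgax* at 2.12 and not called. *Ccr7* lost its call whichever array was left out, high 1 or 2 or low 1 or 2, and 1 dendritic marker was called higher under the stricter filter, with at least 3 probe sets per gene, the trend and robust fit of limma or the replicate block. Their summed log2 values were 61.5 to 63.9 on the SOX7::GFP high arrays and 60.8 to 62.9 on the SOX7::GFP low arrays, so the groups overlapped. Of 11 macrophage markers 1 was lower (*Fcgr1*, -1.34), with sums of 70.3 to 75.0 against 75.1 to 78.7, and 0 were called lower without high 2 or low 1, with no filter, the median of probe sets or the replicate block. Of 9 neutrophil markers 4 were lower (*Ngp* -5.75, *Ltf* -4.69, *Camp* -4.52 and *Mmp8* -4.06), with sums of 59.6 to 66.8 against 84.3 to 89.0. All 10 B lineage markers were lower, led by *Rag1* (-4.85), *Vpreb3* (-4.82), *Blnk* (-4.70) and *Ebf1* (-4.55), with sums of 56.1 to 67.7 against 100.6 to 101.0, and 4 were called without low 1 or low 2. Of 7 mast cell and basophil markers 4 were higher (*Cpa3* 3.20, *Gata2* 2.57, *Mcpt8* 2.25 and *Fcer1a* 2.24), with sums of 58.2 to 62.0 against 48.0 to 48.5, and 2 were called higher without low 1 or low 2. *Prss34*, a protease gene of basophils, was at 5.81 and 5.80 against 6.60 and 6.89 (-0.94, adjusted p = 0.0352 in limma), lower without overlap but under 2-fold, and 1 gene of this list was called lower with no filter, quantile normalization or no fold threshold. Of 9 T cell markers 1 was higher (*Cd28*, 1.56) and 1 lower (*Cd2*, -2.25), the former not called without high 1, high 2 or low 2 and the latter without high 1, low 1 or low 2. None of 7 stroma markers, such as *Fn1* (-0.31) and *Cxcl12* (0.34), and none of 4 genes of all blood cells, such as *Laptm5* (-0.19) and *Coro1a* (-0.10), was called.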

How the data were processed

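Gene expression was measured on 4 arrays, 2 per group. The log2 values of 1236087 probe sets were deposited by the authors after RMA (version not given in the sources used here), without the detection filter of their methods, with medians of 3.90 to 3.91 and a range of 0.55 to 14.4. The number of arrays limits the precision.

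Platform annotation gave 1 symbol for 321091 probe sets, several for 7796 and none for 907200, and the 22378 names were updated through the GRCm38.p6 gene table where needed (4256). The 191615 singly named probe sets with a second-highest value of 5.04 or more were averaged per gene, and 18762 genes were tested with limma 3.58.1 (R 4.3.3, tested on simulated data), with no block. Members, gene lists and tests were chosen with earlier results of these data known. Named were called members, per family the 6 with the highest mean and uncalled ones past 2-fold, and up to 4 called genes per list. Others were named after their values were seen. The lists were adaptors and signalling, ligands, other C-type lectin fold genes and markers of NK, T, dendritic, mast, stromal and blood cells, macrophages, neutrophils, B lineage, megakaryocytes and endothelium. Alternatives were other filters, medians, 3 or more probe sets, quantile normalization, other tests, a replicate block and leaving out each array.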

Additional observations from a re-analysis of the deposited data

Results flagged for a closer look

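Probe sets with several Klra symbols lie outside the gene values and were looked at apart: 11 of the 14 kept ones were higher on both SOX7::GFP high arrays than on both SOX7::GFP low arrays, beside 30.3% of all kept probe sets, and 2 were called in a fit to single probe sets that was chosen after seeing the data. Both called ones, and 4 of the 11, had both SOX7::GFP low arrays under the filter value, so they passed it only through the SOX7::GFP high arrays. No single Ly49 gene can be named from them, and they differed by array too, with a median of 8.18 and 6.83 on the SOX7::GFP high arrays over the 9 with *Klra1* among their symbols.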

How the results depend on the processing

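*Klrd1*, *Clec4a2* and *Clec4b2* were called under every alternative but the methods' t-test, which called 0 Clec, 0 Klr and 0 of all genes in either direction after Benjamini-Hochberg adjustment. At an unadjusted p under 0.05 and at least 2-fold it passed 6 Clec, 2 Klr and 1193 of all genes. With the median of probe sets, 1 Clec and 0 Klr genes were higher. Without the filter 0 Klr genes were higher and 1 was lower, and with at least 3 probe sets per gene 1 Klr gene was lower. Leaving out 1 array gave 0 to 1 Clec genes higher and 2 to 4 lower, 0 to 1 Klr genes higher and 1 to 2 lower, and 145 to 406 of all genes higher and 166 to 313 lower. The array left alone in its group is then assumed to vary like the other group.

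Signs turned for *Clec2i* (-0.63 without high 1 and -0.04 without low 2, of -0.63 to 0.90 over the arrays left out), *Klrb1a* (0.10 without low 1, of -0.24 to 0.10), *Klrc1* (0.47 without high 2, of -2.53 to 0.47) and *Klrg2* under the stricter filter (0.11), and were not called where they had turned. The cause was not tested.

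Same-numbered arrays deviated together at a correlation of 0.10 across genes, over 2 pairs only, so the numbers were not taken as a pairing. With the replicate number as a block, 2 Clec genes were higher and 4 lower, 1 Klr gene was higher and 2 lower, and 704 of all genes were higher and 642 lower. Each SOX7::GFP high mean under 5.04 is limited by signal over background.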
